A study of Mus musculus with 3 samples.

Results

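The Toll-like receptor genes Tlr1, Tlr2, Tlr3, Tlr4, Tlr6, Tlr7 and Tlr9, and the genes of the lipopolysaccharide (LPS) co-receptors Cd14, Ly96 and Lbp, were followed in RAW264.7, a mouse cell line of macrophage type derived from a virus-induced tumour. They were taken as every probe set whose annotation names 1 of these 10 genes, which gave 14 probe sets among the 12393 genes named on the array, and no probe set was shared with another gene. Total RNA was measured on 1-colour Affymetrix-type arrays at 0, 2 and 12 h of LPS, with 1 array per time and 3 arrays in all. The labels give no dose of LPS and no strain or genotype of the cells beyond the name of the line. There was no untreated array at 2 or 12 h, so time in culture and LPS cannot be told apart.

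Toll-like receptors are membrane proteins that bind conserved microbial molecules and signal through a shared cytoplasmic domain to NF-kB and to interferon regulatory factors. LPS, the outer membrane glycolipid of Gram-negative bacteria, is carried by the serum protein LBP to CD14, which hands it to the complex of TLR4 and its small partner MD-2, the product of Ly96. TLR2 pairs with TLR1 or TLR6 to bind bacterial lipoproteins at the cell surface, whereas TLR3, TLR7 and TLR9 bind nucleic acids inside endosomes.

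Signals below are linear probe set intensities, scaled to 1 common trimmed mean per array, and each difference is a log2 ratio of the later array over the earlier one. Low signals were read as 34.96, called the floor here, which 40 percent of the scaled values lie under. No fold is given for a gene when both arrays of a comparison are under the floor, and only a bound when 1 of them is. With 1 array per time there was no test, and the call of a gene as higher or lower means a difference of at least 2-fold. The only error that could be read from the arrays is the spread between probe sets of 1 gene. Its SD of the log2 difference was 0.32 at 2 h and 0.34 at 12 h against 0 h, and 0.31 between 12 h and 2 h. This spread leaves out variation between cultures, RNA samples and hybridisations, which the probe sets of an array share. The deposited array medians were 56.3, 51 and 54.4 at 0, 2 and 12 h. Of 10 macrophage marker genes, 9 were at or above the floor on each array, among them Csf1r, Adgre1 and Cd68, and Mertk was under it on all 3. Their summed signal was 17655, 17693 and 18818 at 0, 2 and 12 h. All 6 T cell markers on the array stayed under the floor at every time. Of 7 neutrophil markers, 3, 2 and 5 were at or above the floor at 0, 2 and 12 h, with a summed signal of 205, 168 and 271, and their part in the results was not tested. In the lists for B cells, dendritic cells, fibroblasts, epithelial and endothelial cells, 1 or 2 markers were at or above the floor on each array. The LPS target gene Tnf had signals of 184, 3346 and 1343 at 0, 2 and 12 h, so it was 18.2-fold higher at 2 h than at 0 h. Of 7 measured genes in the control list, 5 were at least 2-fold higher at 2 h, against 2.09% of all genes. The others were Ifit1 at 1.53-fold and the reference gene Actb at 1.13-fold. Larger than the difference of Tnf were those of Cxcl2 at 65.3-fold, Il1b at 46.8-fold and Ccl5 at 18.4-fold.

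Of the 10 genes, 8 were at or above the floor on all 3 arrays. Tlr3 was above it on 2 arrays, and Tlr9 was under it on all 3. At 2 h, 1 of the 9 genes with a value was at least 2-fold higher than at 0 h, namely Tlr2, and 1 was at least 2-fold lower, namely Tlr4. Over all 8422 genes measured in that comparison, 2.09% were at least 2-fold higher and 1.69% at least 2-fold lower. At 12 h none of the 9 was 2-fold apart from 0 h in either direction, against 3.01% higher and 2.40% lower among 8629 genes. Between 12 h and 2 h the same 2 genes were apart, now the other way round: Tlr4 was higher and Tlr2 lower, against 2.65% higher and 1.98% lower among 8467 genes. The direction in which Tlr2 and Tlr4 differed from 0 h was thus opposite at 2 h, while at 12 h both had signals under those at 0 h by less than 2-fold.

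**Figure D1:**
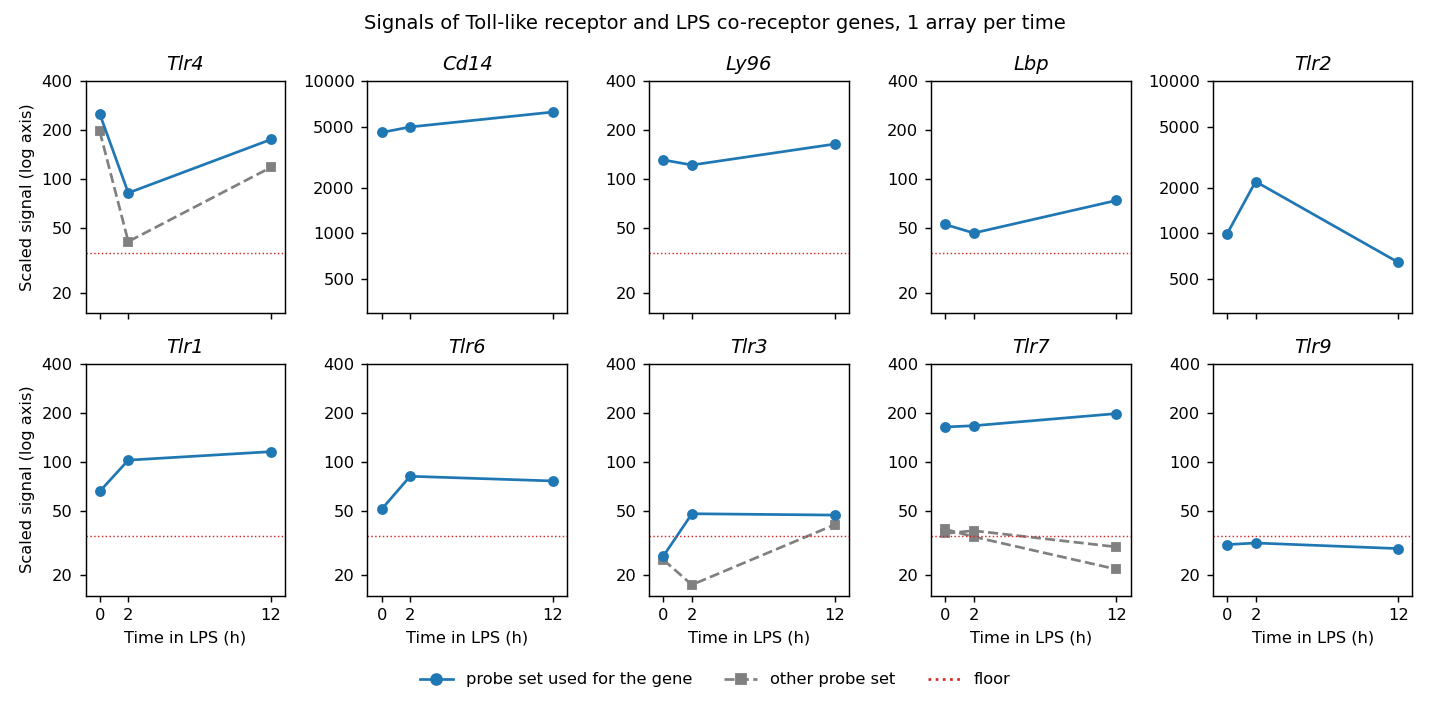
Scaled signal on a log axis against time in LPS in hours, 1 panel per gene and 1 array per time, with circles for the probe set used for the gene, squares for its other probe sets and a dotted line at the floor of 34.96. Both probe sets of Tlr4 are lowest at 2 h, Tlr2 is highest at 2 h, and Tlr9 lies under the floor throughout. The panels of Cd14 and Tlr2 have a higher range of signal than the others, and the floor lies below it.

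The receptor of LPS itself, Tlr4, was read by 2 probe sets made from the same transcript record. The brighter had signals of 251, 82.2 and 175 at 0, 2 and 12 h, and the dimmer had 196, 41.3 and 118, near the floor at 2 h. Both were lowest at 2 h and lay between their 2 h and 0 h signals at 12 h. At 2 h Tlr4 was 3.06-fold lower than at 0 h by the brighter probe set (log2 difference -1.61) and 4.74-fold lower by the dimmer one (-2.25). In the order of all 8422 log2 differences from the lowest, the brighter probe set of Tlr4 held rank 13. At 12 h it was 2.13-fold higher than at 2 h (log2 difference 1.09), and the dimmer was 2.85-fold higher (1.51). This step of the brighter probe set was close to the 2-fold line and had a log2 difference of 0.99 with arrays set to 1 median and of 0.84 where a pseudocount replaced the floor. Against 0 h, the 12 h signal was 69.7% by the brighter probe set, a log2 difference of -0.52, and the dimmer gave -0.74. Of 8150 genes measured in both steps, 30 had a 2 h signal at least 2-fold under both others, as Tlr4 did, and these were 22.4% of the 134 that were 2-fold lower at 2 h.

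The genes of the proteins that bring LPS to TLR4 were not 2-fold lower at 2 h. Cd14, the LPS receptor anchored in the outer membrane leaflet, had signals of 4599, 4998 and 6259 at 0, 2 and 12 h. It was 1.36-fold higher at 12 h than at 0 h, a log2 difference of 0.44 against a spread between probe sets of 0.34. Ly96, whose product MD-2 holds the lipid part of LPS in its pocket, had signals of 131, 122 and 164. Its log2 differences were -0.10 at 2 h and 0.33 at 12 h against 0 h, both within 1 SD of the spread between probe sets. Lbp, a lipid transfer protein that is made mainly in liver, had low signals of 52.6, 46.6 and 73.9, all above the floor. Lbp was 1.59-fold higher at 12 h than at 2 h and 1.41-fold higher than at 0 h. All 3 co-receptor genes were highest at 12 h, the time at which Tlr4 was still under its 0 h signal, and none of them was 2-fold apart in any comparison. Each was read by 1 probe set only.

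Tlr2, the lipoprotein receptor, had signals of 994, 2191 and 647 at 0, 2 and 12 h by its single probe set. It was highest at 2 h and lowest at 12 h. At 2 h it was 2.2-fold higher than at 0 h (log2 difference 1.14), which placed it at rank 142 from the top of 8422 genes. At 12 h it was 3.38-fold lower than at 2 h (log2 difference -1.76), at rank 34 from the bottom of 8467 genes, and it stood at 65.1% of its 0 h signal. The same shape, with a 2 h signal at least 2-fold over both others, was seen in 66 genes, or 37.5% of the 176 that were 2-fold higher at 2 h.

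RefSeq promoter windows of 5 of the 10 genes were searched, from 250 bases before to 50 bases after a transcript start in GRCm38.p6. Any window of these genes on 1 chromosome was left out of the search, so a window of another member can be missing here. Those of Tlr2, Tlr1 and Tlr6 are shown because Tlr2 was the gene that was 2-fold higher at 2 h and because the genes of its partners were higher at 2 h too, by less. Of the windows of Tlr1 and Tlr6, those that held a searched motif are printed. Only the 250 bases before the start are printed, 5′ to 3′ on the strand of the gene, which is the minus strand for all 3, and capitals mark the motif matches. They lie at chr3:83841609-83841858 for Tlr2, chr5:64933559-64933808 for Tlr1 and chr5:64959167-64959416 for Tlr6.
Tlr2: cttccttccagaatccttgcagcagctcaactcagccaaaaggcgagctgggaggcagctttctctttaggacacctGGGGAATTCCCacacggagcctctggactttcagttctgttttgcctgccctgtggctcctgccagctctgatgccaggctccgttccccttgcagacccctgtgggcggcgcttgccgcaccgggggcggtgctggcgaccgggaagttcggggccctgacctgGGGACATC
Tlr1: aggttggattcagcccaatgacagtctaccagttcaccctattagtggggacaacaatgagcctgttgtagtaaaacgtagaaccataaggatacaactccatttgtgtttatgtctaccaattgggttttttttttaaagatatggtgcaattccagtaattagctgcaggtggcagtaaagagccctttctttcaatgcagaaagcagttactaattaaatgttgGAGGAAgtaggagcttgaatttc
Tlr6: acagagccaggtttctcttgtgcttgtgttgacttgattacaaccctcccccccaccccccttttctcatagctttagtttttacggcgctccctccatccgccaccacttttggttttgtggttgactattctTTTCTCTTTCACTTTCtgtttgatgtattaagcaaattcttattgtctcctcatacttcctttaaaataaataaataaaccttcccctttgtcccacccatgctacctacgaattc
The letters searched on both strands were GGGA and TTCC with any 2 bases between them for NF-kB, GAGGAA for the purine box that PU.1 binds, TGANTCA for AP-1, and GAAA and GAAA with any 2 bases between them for the interferon-stimulated response element. None of these was in the Tlr2 window. The capitals of Tlr2 match the broader NF-kB consensus, a search added after the narrower letters had been read in that window. They hold 2 overlapping matches from base -173 and base -172 relative to the start, and another match begins at base -8 and runs across the start, past the printed end. The broader consensus was in 8.46% of all 32851 windows. The Tlr1 window has the purine box at base -23, a motif in 28.3% of windows. The Tlr6 window has 2 overlapping matches of the interferon-stimulated response element, on the opposite strand, from base -116 and base -110, a motif in 3.44% of windows. Among the other windows, the narrower NF-kB letters were in that of Tlr3, as in 1.47% of windows, and Tlr9 had the purine box and the AP-1 letters, the last as in 7.81% of windows. Such matches describe the letters and show nothing about binding in these cells.

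The genes of both partners of TLR2 were higher at 2 h and remained above their 0 h signals at 12 h. Tlr1, whose product joins TLR2 to bind triacylated lipoproteins, had signals of 65.6, 102 and 115 at 0, 2 and 12 h. Tlr6, whose product joins TLR2 to bind diacylated lipoproteins, had 50.9, 81.2 and 76. Tlr1 was 1.55-fold higher at 2 h and 1.75-fold higher at 12 h than at 0 h, with log2 differences of 0.63 and 0.81. Tlr6 was 1.6-fold and 1.49-fold higher, with log2 differences of 0.68 and 0.58. None of these passed 2-fold. With a fold of 1.5, Tlr1 and Tlr6 joined Tlr2 among the higher genes at 2 h, which made 3 of 9, against 5.60% of all genes measured. Both had low signals at 0 h. With the floor raised to the 60th percentile, the log2 differences of Tlr1 were 0.27 at 2 h and 0.44 at 12 h. Tlr6 was under that floor of 84.64 on all 3 arrays and so had no value. At 12 h Tlr2 was 1.54-fold lower than at 0 h while Tlr1 was 1.75-fold higher. Tlr1 and Tlr6 are neighbours on chromosome 5, with 0 protein-coding genes between them in the RefSeq table.

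**Figure D2:**
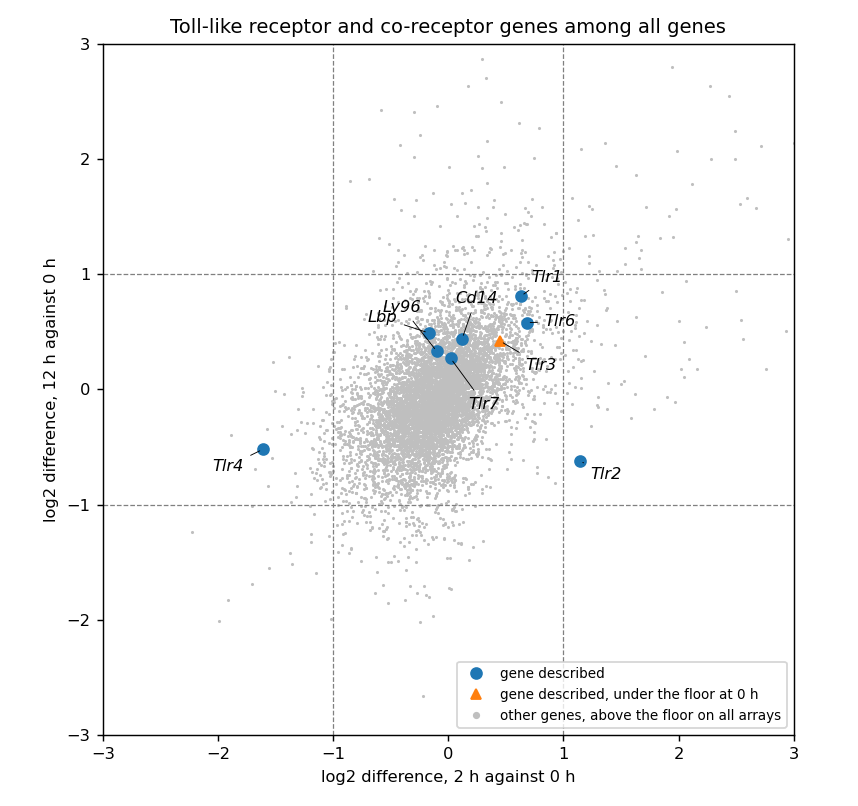
Log2 difference of 12 h against 0 h plotted against that of 2 h against 0 h, with grey dots for genes at or above the floor on all 3 arrays, large symbols for the genes described and dashed lines at 2-fold. Of 7318 such genes, 30 lie beyond the axes. Tlr4 stands left of the left line at -1.61 and Tlr2 right of the right line at 1.14, and all 9 genes lie between the horizontal lines. The triangle is Tlr3, a bound on both axes.

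The endosomal receptors had low or steady signals. Tlr7, a sensor of single-stranded RNA, had signals of 163, 166 and 197 at 0, 2 and 12 h by its brightest probe set, with log2 differences of 0.02 at 2 h and 0.27 at 12 h against 0 h. Its other 2 probe sets, both made from 1 shared sequence record, were near or under the floor. They had 36.2, 37.6 and 29.9, and 38.4, 34.5 and 21.8, and so did not share the small upward step at 12 h. Tlr3, a sensor of double-stranded RNA, had signals of 26.3, 47.8 and 46.9 by the probe set used, whose suffix marks possible cross-hybridisation. Tlr3 was under the floor at 0 h, and was at least 1.37-fold higher at 2 h and at least 1.34-fold higher at 12 h. The other Tlr3 probe set had 24.9, 17.5 and 40.9 and was above the floor at 12 h only. The 2 probe sets of Tlr3 thus differed at 2 h, and the direction of Tlr3 at that time is uncertain. Tlr9, a sensor of unmethylated CpG DNA, had signals of 30.9, 31.6 and 29.2, all under the floor, so no fold is given.

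Taking the 9 genes with a value, the median log2 difference was 0.12 at 2 h and 0.42 at 12 h against 0 h, beside -0.10 and -0.05 over all genes measured. At 12 h, 7 of the 9 lay above 0, the exceptions being Tlr4 and Tlr2, and over all genes 45.3% lay above 0. At 2 h, 6 of 9 lay above 0, against 37.6% of all genes. In the order of their 12 h log2 differences from 0 h the genes ran Tlr1 at 0.81, Tlr6 at 0.58, Lbp at 0.49, Cd14 at 0.44, Tlr3 at 0.42 as a bound, Ly96 at 0.33, Tlr7 at 0.27, Tlr4 at -0.52 and Tlr2 at -0.62. Each of these neighbours lay within 1 SD of the spread between probe sets, 0.34, except for the step between Tlr7 and Tlr4.

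The genes nearest in pattern were found for Tlr4 and Tlr2 by the distance in the log2 differences of 2 h and of 12 h against 0 h, over 7318 genes above the floor on all 3 arrays. For Tlr4 they were Mdm4 at a distance of 0.11, Lzts2 at 0.18 and Fos at 0.18. Mdm4, a p53 inhibitor, had signals of 111, 38.5 and 73.9 at 0, 2 and 12 h, and Fos, an AP-1 subunit, had 938, 294 and 582. Lzts2 had 126, 42.2 and 99, so the 2 h signals of Mdm4 and Lzts2 were near the floor. For Tlr2 the nearest genes were Enc1 at 0.29, Id3, an inhibitor of helix-loop-helix factors, at 0.31 and Nab2, a co-repressor of EGR factors, at 0.32. Enc1 had signals of 180, 344 and 103, also highest at 2 h and lowest at 12 h. The pattern rests on 3 arrays, and all distances share the 0 h array.

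Of the other Toll-like receptor genes, Tlr5, the flagellin receptor, had signals of 59.9, 61.5 and 63.4 at 0, 2 and 12 h, and Tlr8 had 53.8, 48 and 47.7. Neither passed 1.5-fold in any comparison. Tlr11, Tlr12 and Tlr13 were not analysed here. Of 18 measured genes of proteins that fold, carry or accompany the receptors, 0 were 2-fold apart at 2 h, where 2.09% of all genes were higher and 1.69% lower. Their median log2 difference was -0.01, beside -0.10 over all genes. Nrros, a gene of a leucine-rich repeat protein that was chosen after its values were seen, had signals of 539, 325 and 453 at 0, 2 and 12 h, with a log2 difference of -0.73 between 2 h and 0 h. Also in this list was Unc93b1, the escort of the endosomal receptors, with signals of 373, 505 and 536. At 12 h, 2 of the 18 were at least 2-fold higher and 2 at least 2-fold lower than at 0 h. For all genes these shares were 3.01% and 2.40%. Ly86 encodes MD-1, a relative of MD-2 that partners the TLR4-like protein CD180. It had signals of 2191, 2260 and 967 at 0, 2 and 12 h and was 2.27-fold lower at 12 h than at 0 h. Its partner gene Cd180 had 159, 127 and 217, so at 12 h the log2 difference from 0 h was -1.18 for Ly86 and 0.45 for Cd180. Lgmn, a lysosomal protease that takes part in the cleavage of endosomal receptors, was 2.43-fold lower at 12 h than at 0 h, with signals of 652 against 1584. The higher genes encode the integrin chains of complement receptor 3, with Itgam 2.27-fold and Itgb2 2.02-fold higher at 12 h than at 0 h. The log2 difference of Itgb2 was 0.87 under quantile normalization.

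Downstream of the receptors, 18 measured genes had a median log2 difference of 0.14 at 2 h against 0 h. The list holds genes of adaptors and kinases and the interferon regulatory factor genes Irf3, Irf5 and Irf7. Beside 1.69% of all genes at least 2-fold lower and 2.09% higher, 0 of the 18 were lower and 1 was higher. This was Ikbke, a kinase related to TBK1, with signals of 86.4, 485 and 346 at 0, 2 and 12 h, 5.62-fold higher at 2 h and 4-fold higher at 12 h than at 0 h. The adaptor genes differed less: Myd88, shared by most Toll-like receptors, had signals of 471, 421 and 503, and Tirap, which bridges MyD88 to TLR2 and TLR4, had 111, 196 and 156. Tirap was 1.77-fold higher at 2 h than at 0 h. At 12 h, 3 of 18 were higher than at 0 h and 0 were lower, against 3.01% and 2.40% of all genes. Besides Ikbke these were the interferon regulatory factor gene Irf7, 6.2-fold higher (1268 at 12 h against 204 at 0 h), and the kinase gene Syk, 2.34-fold higher (203 against 87). With a pseudocount, Syk had a log2 difference of 0.97.

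Of 9 measured genes that restrain the pathway, 2 had at least 2-fold more signal at 2 h and 0 had that much less. Among all genes the shares were 2.09% and 1.69%. Tnfaip3, which encodes the ubiquitin-editing enzyme A20, was 6.78-fold higher at 2 h than at 0 h (409 against 60.2), and the phosphatase gene Dusp1 was 4.47-fold higher (705 against 158). Like Tlr2, both had 12 h signals at least 2-fold under those at 2 h, with log2 differences of -2.59 and -1.98. In that comparison 2 of the 9 were lower and 2 higher, against 1.98% and 2.65% of all genes. The higher ones were Pilra and Trafd1, with log2 differences of 1.63 and 1.28. Pilra, an inhibitory paired receptor, was 3.79-fold higher at 12 h than at 0 h. It was the only gene of the list 2-fold apart between 12 h and 0 h, against 3.01% of all genes higher and 2.40% lower. Socs1 was under the floor on all arrays. Sigirr, an inhibitory member of the interleukin 1 receptor family, had 63.7, 47.8 and 40.

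Of 15 listed receptors of other families that bind microbial molecules, 7 had a value at 2 h. Beside 2.09% of all genes at least 2-fold higher than at 0 h and 1.69% lower, 3 of the 7 were higher and 0 lower. The higher ones were the RNA helicase gene Ifih1 at 4.34-fold, the lectin gene Clec4e at 2.9-fold and the inflammasome sensor gene Nlrp3 at 2.22-fold. Nlrp3 had signals of 270, 599 and 271 at 0, 2 and 12 h, with a 2 h difference close in size to that of Tlr2 and a 12 h signal near that at 0 h. At 12 h, 3 of 8 were higher than at 0 h and 0 lower, against 3.01% and 2.40% of all genes. These 3 were Clec4n, a gene of the dectin-2 lectin, at 4.63-fold, Ifih1 at 3.44-fold and Clec4e at 2.12-fold. Marco, Mrc1 and Aim2 were under the floor on all 3 arrays.

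Among 16 measured genes of transcription factors that act on Toll-like receptor genes or on inflammatory genes, 3 were at least 2-fold higher and 2 at least 2-fold lower at 2 h than at 0 h. Over all genes, 2.09% were higher and 1.69% lower. The higher ones of the 16 were the NF-kB subunit gene Rel at 7.72-fold, Junb at 4.26-fold and Ets2 at 3.14-fold. The lower ones were Fos at 3.2-fold and Jun at 2.84-fold, both AP-1 subunits. Jun had signals of 181, 63.7 and 180 at 0, 2 and 12 h, and so was lowest at 2 h, as Tlr4 was. Spi1, which encodes PU.1, had 631, 1255 and 965, with a log2 difference of 0.99 at 2 h, just under 2-fold. Irf8, a partner of PU.1, had 130, 71.9 and 99.7. At 12 h, 2 of 16 were higher and 1 was lower than at 0 h, against 3.01% and 2.40% of all genes. Rel and Ets2 were the higher ones, at 2.48-fold and 2.51-fold, and Bcl6 was 2.09-fold lower. Neither Rel nor Bcl6 kept 2-fold at 12 h with the floor at the 60th percentile, where their log2 differences were 0.05 and -0.84. With the median over its 2 probe sets, Bcl6 had a log2 difference of -0.53 at 12 h. Rel had a signal of 35.3 at 0 h, close to the floor, and its 2 h log2 difference was as low as 1.69 among the alternatives.

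**Figure D3:**
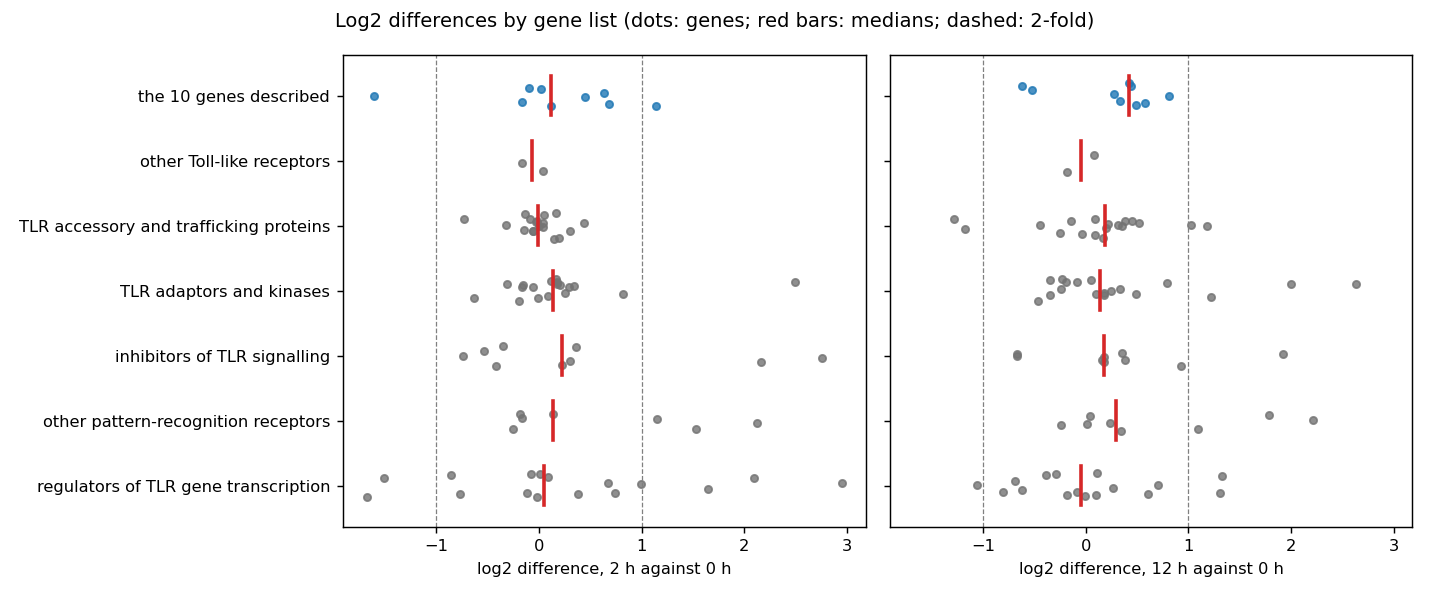
Log2 difference of 2 h against 0 h and of 12 h against 0 h, with 1 dot per measured gene, a row per gene list, red bars at the list medians and dashed lines at 2-fold. The 9 genes with a value among the 10 described have a median of 0.12 at 2 h and 0.42 at 12 h, and at 12 h all 9 lie within the dashed lines.

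The values of Tlr4 and Tlr2 were compared across the ways of processing. The log2 difference of Tlr4 at 2 h against 0 h ran between -1.93, where the median of its 2 probe sets was taken, and -1.29, with a pseudocount. That of Tlr2 ran between 1.11 and 1.28, and that of Tlr2 at 12 h against 2 h between -1.86 and -1.71. Both genes kept their direction in all 3 comparisons under all 8 of these alternatives, but several alternatives only returned the reported values. For Tlr2, only median scaling, quantile normalization and a pseudocount gave values other than those reported. For Tlr4, the unscaled deposited values, a lower floor and leaving out suffixed probe sets changed nothing. All 8 use the same 3 arrays, so they are not independent checks of the direction.

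**Figure D4:**
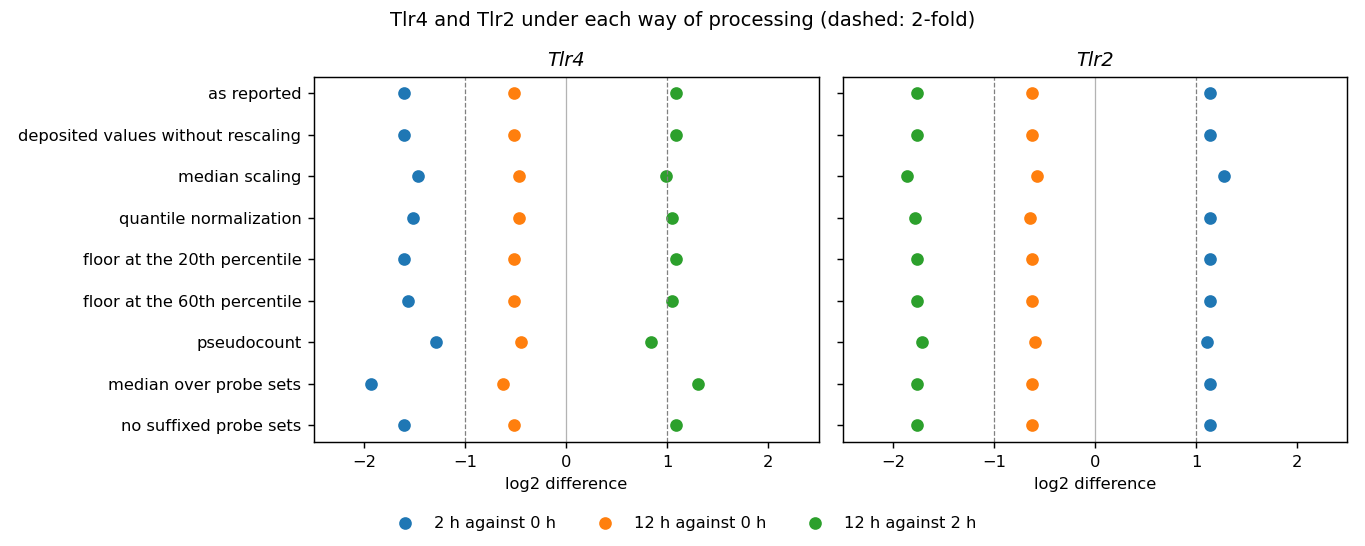
Log2 difference of Tlr4 and Tlr2 in each of 3 comparisons, as reported and under each of 8 alternatives for scaling, floor and choice of probe set, with dashed lines at 2-fold. The step of Tlr4 between 2 h and 12 h crosses the 2-fold line under median scaling and under a pseudocount, and the other points stay on the side they have as reported.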

How the data were processed

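The values the authors deposited are linear intensities of 22690 probe sets, including 64 controls, from 3 arrays with 1 per time. Per the labels' protocols, the target was made from 5 µg of total RNA by a modified Affymetrix procedure. The summary software and the authors' normalization are not stated there. The deposited 2% trimmed mean was 150.05 on each array, so the arrays had been scaled before deposit, and a change in total mRNA would not be seen. A total of 20393 probe sets named 1 gene, 691 several and 1606 none, and 20364 were matched to RefSeq GRCm38.p6, which was used for names.

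Arrays were rescaled to a common 2% trimmed mean over non-control probe sets, which moved them by at most 0.16%. Values under the floor were replaced by it ahead of the log2 step, and the probe set with the highest mean log2 signal stood for its gene. The spread is the pooled SD within genes that have more than 1 probe set above the floor. No p-value was computed, and the number of arrays limits the precision. The counting was tested on simulated data, with changes well over 2-fold planted in bright genes of 1 probe set. Changes near 2-fold or in dim genes were not planted, so the calls of such genes were not tested. The 10 genes and the gene lists were chosen with earlier results of these data known. All 10 genes were named. Genes named from a list were among its up to 4 largest differences past 2-fold in a comparison or had a central role, and not every such gene is named. Nrros and genes named for being under the floor fall outside this rule. Promoter sequences are from RefSeq. Python 3.11.15, numpy 2.4.6, pandas 2.3.3 and matplotlib 3.10.9 were used.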

Additional observations from a re-analysis of the deposited data

How the results depend on the processing

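No paired analysis was possible because there is 1 array per time. With a fold of 1.5, 4 of the 9 genes with a value were apart from 0 h at 2 h and 2 at 12 h, in place of 2 and 0. Over all genes, 5.6% were then higher and 9.64% lower at 2 h, and 8.32% and 10.3% at 12 h. The 2 at 12 h were 1 higher and 1 lower, about what these shares would give among 9 genes. At 3-fold, 1.03% of all genes were higher and 0.154% lower at 2 h against 0 h. Between 12 h and 2 h these shares were 0.65% and 0.567%. For the 9 genes the number apart at 3-fold was 1 in each of these 2 comparisons, in place of 2 each. With median scaling and with a pseudocount it was 1 for 12 h against 2 h, where Tlr4 lost its call. The other 24 counts were within 1.5 times those reported. Of 230 log2 values of single genes and medians, 5 moved by more than the spread between probe sets, and none of the called ones changed sign. Besides Tlr4 and Tlr1, given above, Tlr3 moved with the floor at the 20th percentile, to 0.86 at 2 h and 0.84 at 12 h. Of 210 counts in the gene lists, 19 moved by more than 1.5 times. Median scaling moved the median of all genes at 2 h to 0.03, in place of -0.10, and 2.67% were then higher and 0.867% lower. With an NF-kB consensus in place of the narrower letters, 2 of the 7 windows searched held a match in place of 1. Over all windows the shares were 8.46% and 1.47%. The consensus search was not planned and was added after the narrower letters had been read in the Tlr2 window. The limits are the 3 arrays, the missing untreated arrays and signals near the floor for Tlr3, Tlr6, Tlr9 and Lbp, and for Tlr5 and Tlr8. The dimmer probe set of Tlr4 was also near the floor at 2 h, with a signal of 41.3.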
